A study of Caenorhabditis elegans with 24 samples.

Results

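The 10 genes described here encode core parts of the mTOR, AMPK and insulin signalling pathways of Caenorhabditis elegans. They were taken by name as let-363, daf-15, rict-1, raga-1, ragc-1, rheb-1, rsks-1, aak-2, daf-2 and age-1. The rule that names them uses no measured value, but they were chosen when earlier results of these data were known. All 10 were among the 20392 genes of the count table, and all 10 were among the 6903 genes that passed the filter on low counts. RNA was sequenced from dissected intestines of adults in 6 groups of 4 biological replicates, which gives 24 libraries. The TIR1 groups carried ieSi57, a transgene that drives the plant F-box protein TIR1 from the eft-3 promoter, and their label also lists unc-119(ed3). The Pol I-AID groups carried the same transgene together with qzIs15, which places a degron and GFP on RPOA-2, a core subunit of RNA polymerase I (Pol I). Auxin lets TIR1 mark degron-tagged proteins for destruction, and RPOA-2 carries a degron in the Pol I-AID strain but not in TIR1. Animals of each strain were fed OP50 bacteria throughout, grown for 72 h at 20 °C, and sampled at 0 h (0 mM auxin) or after 12 or 24 h on 1 mM auxin. The eft-3 promoter is active in many tissues besides the intestine, so the removal of RPOA-2 was not limited to the sampled tissue. The strains behind replicate 1 had been outcrossed 1 time, and those behind replicates 2 to 4 had been outcrossed 3 times.

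mTOR is a kinase that promotes growth, translation and ribosome production when nutrients and growth factors are present. It works in mTORC1, which contains Raptor and is recruited to the lysosome by Rag GTPases and switched on by Rheb, and in mTORC2, which contains Rictor. AMPK is activated when cellular energy is low and restrains mTORC1, and the insulin receptor signals through PI3 kinase and Akt to keep the transcription factor DAF-16 out of the nucleus. In the worm intestine these pathways govern fat storage, growth and lifespan. The study placed Pol I downstream of mTOR, and the libraries allow the question to be asked in the other direction, namely whether transcripts of the pathway differ once Pol I has been removed.

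Total counts ran from 3175888 to 29473696 per library, and vitellogenin genes took 67.6 to 79.9% of them. The libraries of TIR1 0 h replicate 3 (3175888 counts) and TIR1 24 h replicate 1 (4675665 counts) were the shallowest. The defining genes of the intestine were all detected, and their summed level was 42900 to 70400 counts-per-million (CPM), here of the counts outside the vitellogenin genes, as for every summed marker level. The lists for neurons, pharynx, hypodermis, muscle of the body wall, gonadal sheath, sperm and the germline with oocytes had medians of 0.591 to 45.2 CPM. Single libraries stood above this, up to 696 CPM for hypodermis and 590 for body wall muscle at TIR1 0 h.

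Levels of single genes are given as CPM on library sizes scaled with the trimmed mean of M-values (TMM), and differences as log2 fold changes with a standard error (SE). A gene was called when its adjusted p-value (FDR) in edgeR was under 0.05 and its change reached 2-fold. Before auxin, transcripts per unit length ranked the genes in TIR1 intestines as follows. The level of raga-1, a Rag GTPase, was highest at 6.64 ± 1.5 CPM per kilobase of exon (SD, n = 4), and its 4 libraries lay above those of every other member. let-363, the mTOR kinase, came next at 2.86 ± 0.43 CPM per kilobase and ragc-1, the partner of raga-1, at 2.8 ± 0.446. rict-1 stood at 2.25 ± 0.0886, aak-2 at 1.82 ± 0.359 and daf-15 at 1.75 ± 0.279 CPM per kilobase. daf-2 stood at 1 ± 0.33, age-1 at 0.46 ± 0.183, rsks-1 at 0.447 ± 0.131 and rheb-1 at 0.321 ± 0.321 CPM per kilobase. Apart from raga-1 against let-363, the ranges of all neighbours in this order overlapped. The lengths are those of the deposited table.

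**Figure D1:**
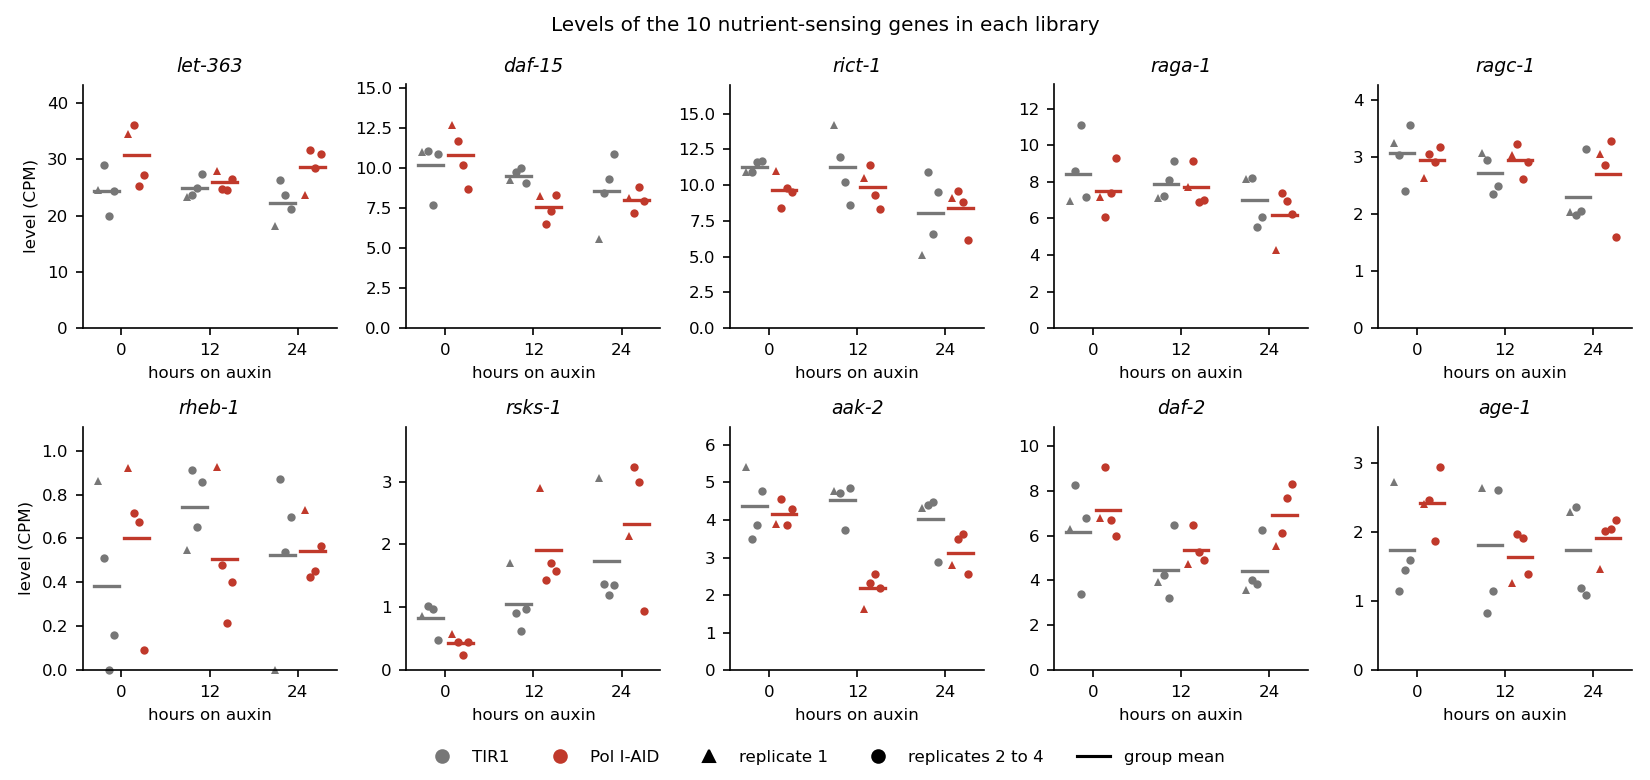
Level in CPM (vertical axis, from 0) of each of the 10 genes at 0, 12 and 24 h on auxin, with 1 point per library, 4 libraries per strain and time, triangles for replicate 1 and bars for group means. The strains overlap in every panel except for aak-2 and daf-15 at 12 h, and the Pol I-AID libraries of rsks-1 are low at 0 h (0.245 to 0.574 CPM) and higher at 12 h (1.44 to 2.9 CPM).

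The gene with a called strain difference was aak-2, which encodes a catalytic subunit of AMPK. After 12 h on auxin its level in Pol I-AID was 1.64, 2.31, 2.56 and 2.19 CPM in replicates 1 to 4, from 39 to 60 counts per library. In TIR1 at the same time it was 4.78, 4.73, 3.73 and 4.85 CPM, from 87 to 130 counts. Every Pol I-AID library lay below every TIR1 library. The fitted level was 0.481 times that of TIR1, a log2 fold change of -1.06 (SE 0.21, 95% interval -1.48 to -0.63, edgeR FDR 0.00223). It was the single member called of 10 at this time, when 2.46% of all tested genes were called and 0.522% were called as lower. In whole intestines a lower level can come from fewer cells with the transcript or from less RNA per cell, which cannot be told apart.

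Before auxin the strains did not differ detectably in aak-2. The libraries held 3.9, 4.57, 3.86 and 4.3 CPM in Pol I-AID and 5.41, 3.5, 3.86 and 4.77 CPM in TIR1, a log2 difference of -0.09 (95% interval -0.51 to 0.33, edgeR FDR 0.94). At 24 h the levels were 2.8, 3.5, 3.62 and 2.55 CPM in Pol I-AID and 4.33, 4.41, 4.47 and 2.87 CPM in TIR1. The groups overlapped, and the difference of -0.35 (95% interval -0.78 to 0.09) did not pass (edgeR FDR 0.316). The tests of these shifts did not pass either. The strain difference of aak-2 changed by -0.97 from 0 to 12 h (SE 0.29, unadjusted p 0.00252, edgeR FDR 0.0712) and by 0.71 from 12 to 24 h (SE 0.29, unadjusted p 0.0229, edgeR FDR 0.388), the latter contrast having been added after the values were seen. In these contrasts 2.07% and 0.319% of all tested genes were called.

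Within Pol I-AID, aak-2 was lower at 12 h than at 0 h, with a log2 value of -0.94 (SE 0.21, edgeR FDR 0.00186), which passed the FDR but was under 2-fold. In TIR1 the change over the same time was 0.03 (95% interval -0.39 to 0.45, edgeR FDR 0.995), a sign that turned to -0.13 with scaling to total counts. The call at 12 h rested in part on the Pol I-AID library of replicate 1, the lowest of all. Without that library the log2 difference was -0.94 (edgeR FDR 0.0162, under 2-fold), and without replicate 1 of all groups, which leaves the strains outcrossed 3 times, it was -0.91 (edgeR FDR 0.0506). The call was also lost in limma, at -0.93 with an FDR of 0.00705 on the log2 scale with a pseudocount of 8. At 12 h the hypodermis markers summed to 13.2 to 29.8 CPM (median 16.5) in TIR1 and to 23.5 to 48.2 CPM (median 29.1) in the Pol I-AID libraries, with bli-1 of these 6 markers at 0 in all 24 libraries. The neuron markers, all 9 of them with counts and 3 passing the filter, summed in TIR1 to 30.7 to 40.3 CPM and in the Pol I-AID libraries to 31.4 to 43.9. The intestine markers summed to 43600 to 63800 and 60100 to 70400 CPM, and the part of these shifts in the result was not tested. In the WBcel235 annotation, aak-2 shares 78 bases of exon (3.21%) with mec-4 on the opposite strand, and mec-4 held 3 counts over all 24 libraries.

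The other called member was rsks-1, with changes within Pol I-AID, and it encodes the S6 kinase that mTORC1 phosphorylates to promote translation. In Pol I-AID its level was 0.574, 0.448, 0.245 and 0.452 CPM at 0 h, and 2.9, 1.44, 1.71 and 1.57 CPM at 12 h. Every 12 h library lay above every 0 h library. The log2 change was 2.17 (SE 0.43, 95% interval 1.29 to 3.05, edgeR FDR 0.000657), a 4.49-fold rise. At 24 h the level was 2.13, 3.23, 3 and 0.943 CPM, again above every 0 h library, with a log2 change from 0 h of 2.47 (SE 0.43, 95% interval 1.58 to 3.36, edgeR FDR 7.49e-05). From 0 to 12 h 8.13% of all tested genes were called in Pol I-AID and 5.71% were called as higher, and from 0 to 24 h these shares were 17.4% and 10.8%.

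These rises in rsks-1 rest on few counts. The Pol I-AID libraries held 8 to 10 counts of it at 0 h, 30 to 69 at 12 h and 10 to 61 at 24 h. On the log2 scale of counts plus a pseudocount of 8, which understates changes of low genes, the rises were 1.5 and 1.44. When 10 counts were required of each library, rsks-1 could not be fitted.

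In TIR1, rsks-1 stood at 0.861, 1.02, 0.965 and 0.481 CPM at 0 h, at 1.7, 0.912, 0.616 and 0.971 CPM at 12 h, and at 3.06, 1.37, 1.19 and 1.35 CPM at 24 h. Every TIR1 library at 24 h lay above every TIR1 library at 0 h. The log2 change was 0.35 from 0 to 12 h (SE 0.43, edgeR FDR 0.818) and 0.97 from 0 to 24 h (SE 0.44, edgeR FDR 0.143), and neither passed.

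The strain difference of rsks-1 did not pass at any time. It was -0.94 at 0 h (95% interval -1.87 to 0, edgeR FDR 0.549), 0.87 at 12 h (0.06 to 1.69, edgeR FDR 0.266) and 0.56 at 24 h (-0.28 to 1.4, edgeR FDR 0.418). The change of the strain difference was 1.81 from 0 to 12 h (SE 0.6, unadjusted p 0.00588, edgeR FDR 0.127) and 1.5 from 0 to 24 h (SE 0.61, unadjusted p 0.021, edgeR FDR 0.139). Scaling to total counts brought the former to 2.04 with an edgeR FDR of 0.049. A larger rise of rsks-1 in Pol I-AID than in TIR1 was thus not shown. The libraries with the extreme values at 24 h were TIR1 replicate 1, at 12 counts, and Pol I-AID replicate 4, at 10 counts. Without the former the strain difference at 24 h was 0.85 (edgeR FDR 0.193) and without the latter 0.81 (edgeR FDR 0.214).

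**Figure D2:**
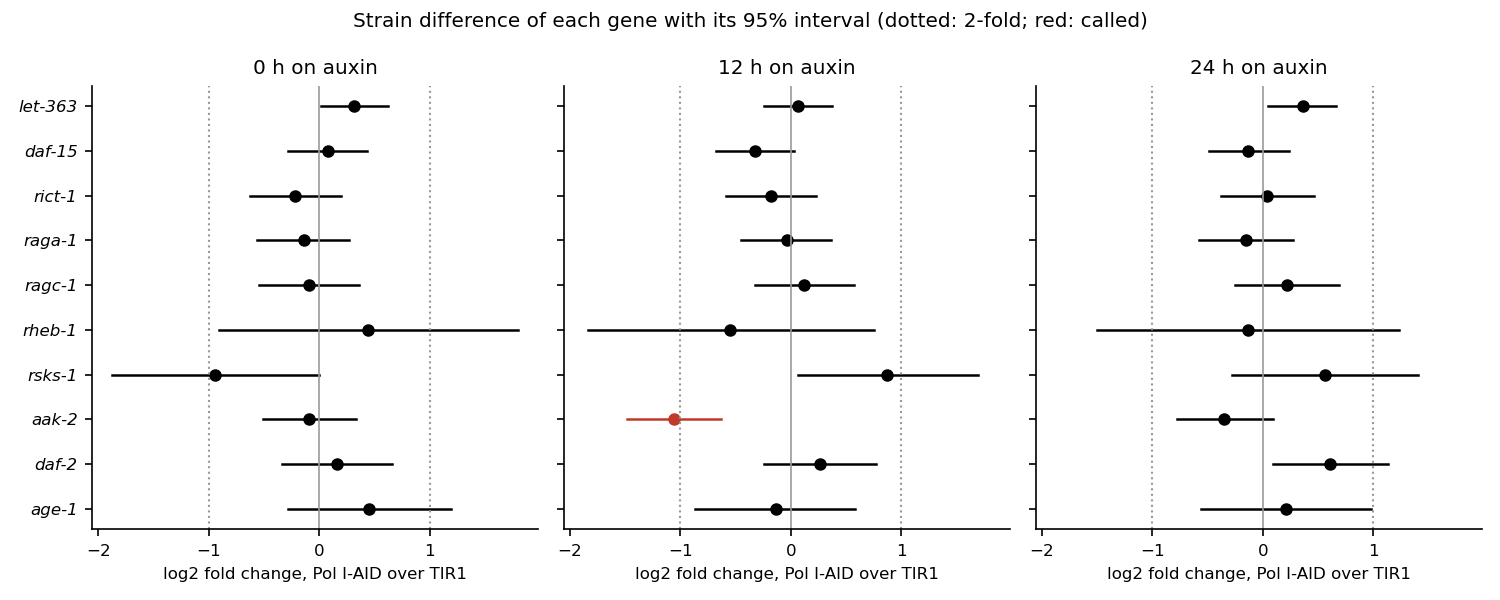
Log2 fold change of Pol I-AID over TIR1 (horizontal axis) for the 10 genes at 0, 12 and 24 h, with points for edgeR estimates from 4 against 4 libraries, lines for 95% intervals and dotted lines at 2-fold. aak-2 at 12 h (-1.06) is the point called, while 7 of the 10 intervals lie within 2-fold at each time.

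The mTOR complex genes had no called difference between the strains. At 0 h let-363 averaged 24.5 ± 3.68 CPM in TIR1 and 30.7 ± 5.33 CPM in Pol I-AID (SD, n = 4 each). At 24 h it held 18.1, 26.3, 23.7 and 21.2 CPM in TIR1 and 23.6, 31.7, 28.5 and 31 CPM in Pol I-AID. The groups overlapped at both times. The log2 difference of let-363 was 0.32 at 0 h (SE 0.15, unadjusted p 0.0396, edgeR FDR 0.523), 0.06 at 12 h (edgeR FDR 0.931) and 0.36 at 24 h (SE 0.15, unadjusted p 0.0245, edgeR FDR 0.12). The change of this difference from 0 to 24 h was 0.04 (95% interval -0.4 to 0.47).

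daf-15, the worm Raptor, was the other member whose groups did not overlap at 12 h. Its levels were 9.28, 9.78, 10 and 9.07 CPM in TIR1 and 8.28, 6.49, 7.31 and 8.32 CPM in Pol I-AID, all of the latter lower. The log2 difference of -0.33 (SE 0.17, 95% interval -0.68 to 0.03) did not pass (edgeR FDR 0.387). Groups failed to overlap for 2 of 10 members at 12 h, against 10.6% of all tested genes, and for 0 of 10 at 0 and 24 h, against 5.64% and 17.8%. Within Pol I-AID, daf-15 was lower at 12 h than at 0 h by -0.51 (SE 0.17, edgeR FDR 0.0493), so that 3 of 10 members (rsks-1, aak-2 and daf-15) passed the FDR alone in that contrast, in which 14.3% of all tested genes did. The pass of daf-15 was kept in 8 of 23 alternatives, where its FDR ran from 0.016 to 0.353. From 0 to 24 h the change of daf-15 was -0.43 (edgeR FDR 0.0684), and the strain difference at 24 h was -0.13 (95% interval -0.49 to 0.24). daf-15 shares 107 bases of exon (1.82%) with col-121 on the opposite strand, which held 133 counts over the 24 libraries.

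rict-1, the Rictor of mTORC2, ranged from 5.09 to 14.2 CPM over the 24 libraries. Its strain difference was -0.22 at 0 h, -0.18 at 12 h and 0.04 at 24 h, the last with a 95% interval of -0.38 to 0.46. The sign at 24 h turned to -0.04 with total count scaling. In TIR1 its log2 change from 0 to 24 h was -0.45 and did not pass (unadjusted p 0.0366, edgeR FDR 0.144). The shallow replicate 1 library of TIR1 at 24 h had the lowest level, 5.09 CPM from 20 counts. rict-1 shares 37 bases of exon (0.737%) with col-86 on the same strand, which held 16 counts over the 24 libraries.

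The Rag GTPases showed no detectable strain difference. raga-1 ranged from 4.27 to 11.1 CPM, and its log2 difference was -0.14 at 0 h, -0.04 at 12 h and -0.15 at 24 h, the last with a 95% interval of -0.58 to 0.27. ragc-1 ranged from 1.6 to 3.56 CPM, with differences of -0.09, 0.12 and 0.22, the last with an interval of -0.25 to 0.69. These intervals hold changes of under 2-fold in either direction. rheb-1, the GTPase that activates mTORC1, was too sparse to compare, at 0 to 23 counts per library and 0 in both shallow libraries. Its interval at 24 h, -1.5 to 1.23 around a log2 difference of -0.13, includes changes of more than 2-fold.

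The insulin receptor gene daf-2 had an unadjusted p under 0.05 between the strains at 24 h. It held 3.56, 4.04, 3.83 and 6.27 CPM in TIR1 and 5.55, 6.1, 7.69 and 8.3 CPM in Pol I-AID. The highest TIR1 library exceeded 2 of the Pol I-AID libraries, so the groups overlapped. The log2 difference was 0.61 (SE 0.25, 95% interval 0.09 to 1.13, unadjusted p 0.0237), and it did not pass (edgeR FDR 0.118). At 0 h it was 0.16 and at 12 h 0.26, and the change from 0 to 24 h was 0.45 (95% interval -0.28 to 1.17, edgeR FDR 0.526). age-1, the catalytic subunit of PI3 kinase that acts below the receptor, held 6 to 70 counts per library and averaged 1.87 CPM over the 24 libraries. Its differences were 0.45 at 0 h, -0.14 at 12 h and 0.21 at 24 h, with a 95% interval of -0.56 to 0.98 at 24 h. It shares 192 bases of exon (4.89%) with B0334.10 on the opposite strand, which held 13 counts in all.

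Counted over the 10 genes, edgeR called 0 at 0 h, 1 at 12 h and 0 at 24 h between the strains, against 0.174%, 2.46% and 7.71% of all tested genes. At 0 h 2 members (let-363 and rsks-1) had an unadjusted p under 0.05, against 9.04% of all genes, and at 24 h 2 (let-363 and daf-2), against 26.5%. DESeq2 and limma also called 0 members at 0 and 24 h, and at 12 h DESeq2 called 1 and limma 0. The median log2 difference of the members was -0.01 at 0 h, -0.09 at 12 h and 0.13 at 24 h, beside 0.04, -0.01 and 0 over all tested genes. At 24 h 7 of the 10 intervals lay within 2-fold in both directions, as did those of 33% of all tested genes. The interval of rsks-1 at 24 h reached 1.4 and that of daf-2 1.13, so these intervals also hold changes of over 2-fold.

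For the change of the strain difference, edgeR, DESeq2 and limma called 0 members from 0 to 12 h and from 0 to 24 h. The share of all genes called by edgeR was 2.07% and 5.88%. An unadjusted p under 0.05 was reached by 2 members from 0 to 12 h (rsks-1 and aak-2, against 12.2% of all genes) and by 1 from 0 to 24 h (rsks-1, against 21.5%). In TIR1, where auxin has no degron to act on, edgeR, DESeq2 and limma called 0 members from 0 to 12 h and from 0 to 24 h, when edgeR called 2.58% and 9.71% of all genes. An unadjusted p under 0.05 was reached by 1 member (daf-2, 15.2% of all genes) and by 2 members (rict-1 and rsks-1, 27.9% of all genes).

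**Figure D3:**
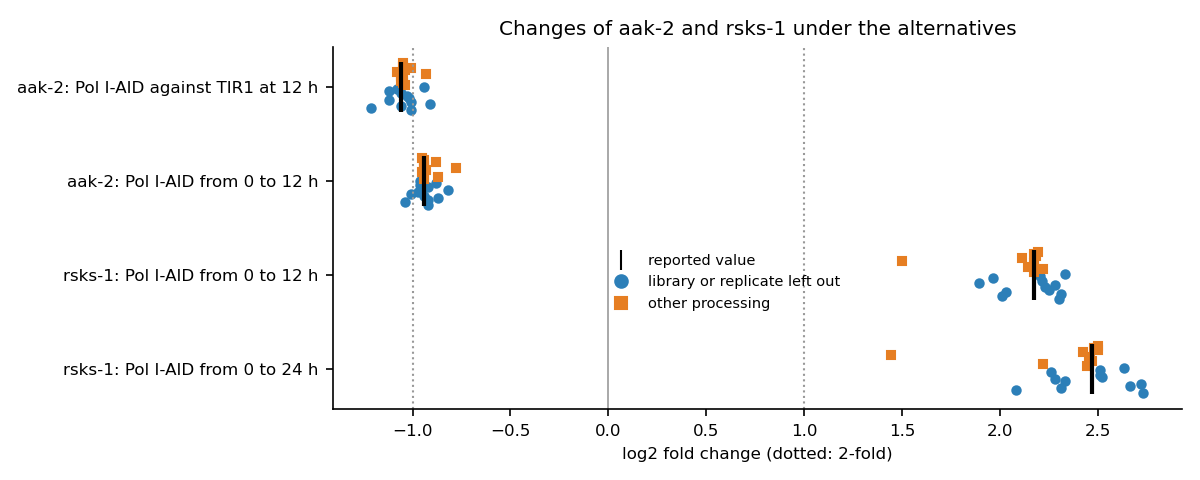
Log2 fold change (horizontal axis) of aak-2 and rsks-1 in the contrasts named at the left, with a black bar for the reported value, circles for fits that leave out a library or replicate and squares for other processing. The aak-2 values spread from -1.21 to -0.91 across the 2-fold line at 12 h, while the rsks-1 values stay above it, the lowest being 1.44.

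The rest of the pathway was read from lists of 116 symbols, of which 115 were in the table and 60 passed the filter. At 24 h 2 of these 60 were called, both lower in Pol I-AID, beside 7.71% of all tested genes. A further 7 passed the FDR alone, so that 4 of 60 were higher and 5 lower at this threshold, against 7.34% and 6.45% of all genes. The median log2 difference over the 60 was 0.08, beside 0 for all genes. For the change of the strain difference from 0 to 24 h, 3 were called higher and 2 lower, beside 5.88% of all genes. The higher were flcn-1, akt-1 and sqst-1, and the lower were dod-3 and mtl-2. At the FDR alone 4 were higher and 3 lower, but the share of all genes at this threshold was not computed, so no excess can be read. mtl-2 (-2.8, edgeR FDR 0.0431) is named after its values were seen. At 24 h mtl-2 ranged from 18.3 to 264 CPM in TIR1 and from 29.7 to 42.2 CPM in Pol I-AID. That strain difference of -1.38 did not pass (edgeR FDR 0.129). From 0 to 24 h mtl-2 rose in both strains, by 4.45 in TIR1 and 1.65 in Pol I-AID (edgeR FDR 5.28e-05 and 0.0399). At 12 h 3 of the 60 passed the FDR alone, against 5.39% of all genes. They were sgk-1, a kinase that acts below mTORC2 (-0.48, edgeR FDR 0.0433), the autophagy gene lgg-2 (-0.53, edgeR FDR 0.0213) and the fatty acid desaturase gene fat-7 (0.89, edgeR FDR 0.000732), of which sgk-1 and fat-7 are named after their values were seen.

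**Figure D4:**
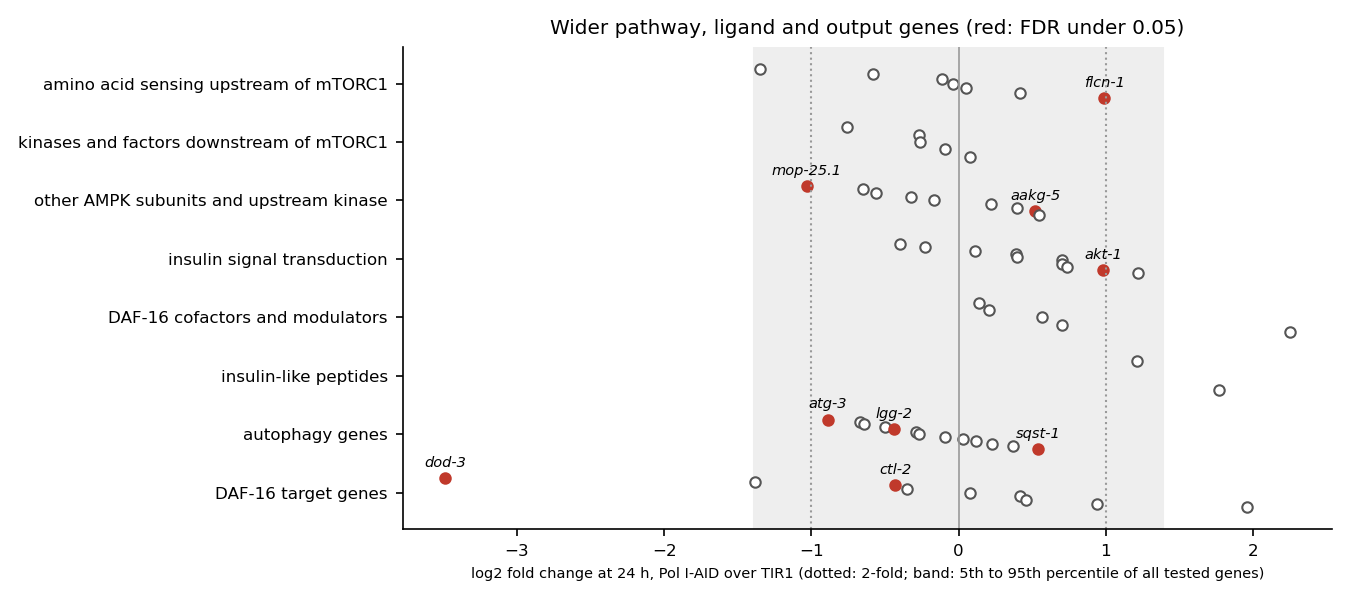
Log2 fold change of Pol I-AID over TIR1 at 24 h (horizontal axis) for the 60 tested genes of the wider lists, with 1 circle per gene, red where the edgeR FDR is under 0.05, and a grey band from -1.39 to 1.39 that holds the 5th to 95th percentile of all 6903 tested genes. Most circles lie inside the band, and dod-3 at -3.49 lies farthest outside it.

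Upstream of mTORC1, 1 of 7 tested genes of amino acid sensing passed the FDR at 24 h as higher, against 7.34% of all tested genes. This was flcn-1, encoding folliculin, which in mammals acts on the Rag GTPases at the lysosome. At 24 h it held 1.78, 1.62, 2.43 and 2.61 CPM in TIR1 and 3.72, 5.83, 3.5 and 4.06 CPM in Pol I-AID, without overlap. The log2 difference was 0.99 (SE 0.26, edgeR FDR 0.0113), just under 2-fold, and it exceeded the difference at 0 h by 1.19 (edgeR FDR 0.0391). From 0 to 24 h flcn-1 fell in TIR1 by -0.8 (edgeR FDR 0.0376). Its change in Pol I-AID, 0.4, did not pass (edgeR FDR 0.261). Of the 5 tested genes that were listed as downstream of mTORC1, 0 passed the FDR at 24 h. Over all tested genes 7.34% passed as higher and 6.45% as lower. The remaining complex subunits mlst-8 and sinh-1 had mean levels of 0.057 and 0.0941 CPM and were not tested.

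Of the other AMPK genes 9 of 13 were tested. At 24 h, with TIR1 as the reference, 1 was higher and 1 was lower at an FDR under 0.05. Over all tested genes these shares were 7.34% and 6.45%. mop-25.1 encodes a worm member of the MO25 family, scaffold proteins of the kinase that activates AMPK in mammals. It held 7.89, 10.8, 11.4 and 10.2 CPM in TIR1 and 4.51, 4.82, 4.58 and 6.04 CPM in Pol I-AID at 24 h, all of the latter lower. Its log2 difference was -1.03 (SE 0.25, edgeR FDR 0.00667), and over 23 alternatives it lay between -1.2 and -0.97, passed the FDR in 22 and kept its call in 18. The call was lost without replicate 2 (-0.99, edgeR FDR 0.0599), without replicate 3 (-0.97, edgeR FDR 0.0287), and without Pol I-AID replicate 1 (-0.99) or replicate 3 (-1 after rounding) or TIR1 replicate 3 (-1 after rounding) of that time. Its level changed by 0.88 from 0 to 24 h in TIR1 (edgeR FDR 0.0168) and by 0.19 in Pol I-AID (edgeR FDR 0.632), and the change of the strain difference of -0.69 did not pass (edgeR FDR 0.272). aakg-5, a regulatory gamma subunit, averaged 76.4 ± 13.2 CPM in TIR1 and 109 ± 6.37 CPM in Pol I-AID (SD, n = 4 each), a log2 difference of 0.52 (edgeR FDR 0.0465) that passed the FDR in 6 of 23 alternatives. aakg-5 rose from 0 to 24 h in both strains, by 1.29 in TIR1 and 1.62 in Pol I-AID (edgeR FDR 1.56e-05 and 9.67e-08), and the change of its strain difference of 0.33 did not pass (edgeR FDR 0.495). The other catalytic subunit, aak-1, differed by 0.4 at 24 h (edgeR FDR 0.575) and by -0.2 at 12 h (edgeR FDR 0.9).

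Of the genes that carry the insulin signal inside the cell 10 of 11 were tested. Their median log2 difference at 24 h was 0.55, beside 0 for all tested genes. Of the 10, 1 passed the FDR, akt-1, as higher, where 7.34% of all tested genes did. akt-1 encodes a kinase that phosphorylates DAF-16. It held 5.09, 3.48, 4.2 and 4.79 CPM in TIR1 and 7.07, 12.3, 6.73 and 8.21 CPM in Pol I-AID, without overlap. The log2 difference was 0.98 (SE 0.23, edgeR FDR 0.00444), under 2-fold, and it was larger than at 0 h by 1.15 (edgeR FDR 0.0263). It reached 2-fold and was called in 10 of 23 alternatives, as was flcn-1 in 7 of 22. The transcript of daf-16 itself differed by 0.4 (edgeR FDR 0.284). At 24 h the neuron markers summed in TIR1 to 24.5 to 35.5 CPM and in the Pol I-AID libraries to 31.8 to 49.6, and the gonadal sheath markers to 0 to 0.802 CPM (median 0.08) and 0.649 to 4.35 CPM (median 1.71). Of the 4 gonadal sheath markers 0 passed the count filter, so their sums rest on few counts. The part of both marker lists in the results for akt-1 and flcn-1 was not tested. Of 39 insulin-like peptide genes, the ligands of this receptor family, 2 passed the filter, ins-11 and ins-13. Their log2 differences at 24 h were 1.77 and 1.21, and neither passed (edgeR FDR 0.157 and 0.111). From 0 to 24 h ins-11 changed by 4.5 in Pol I-AID (edgeR FDR 0.000547) and by 2.48 in TIR1 (edgeR FDR 0.0857). For ins-13 these changes were 2.84 (edgeR FDR 0.000134) and 2.61 (edgeR FDR 0.00303). The changes of their strain differences, 2.02 and 0.22, did not pass (edgeR FDR 0.446 and 0.923). The other peptide genes averaged at most 0.188 CPM, and 13 of the 39 had no count in any library.

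Autophagy is held back by mTORC1, and 13 of 14 listed autophagy genes were tested. At 24 h 1 was higher and 2 were lower at an FDR under 0.05, against 7.34% and 6.45% of all tested genes. The median log2 difference was -0.27, beside 0 for all tested genes. sqst-1, the worm homologue of the autophagy receptor p62, averaged 112 ± 6.88 CPM in TIR1 and 162 ± 13.6 CPM in Pol I-AID, a difference of 0.54 (SE 0.16, edgeR FDR 0.0235). Before auxin it ranged from 174 to 209 CPM in TIR1 and from 107 to 136 CPM in Pol I-AID, a difference of -0.63 that did not pass (edgeR FDR 0.0935). The change of the strain difference between these times was 1.17 (edgeR FDR 0.00138). From 0 to 24 h sqst-1 fell in TIR1 by -0.77 (edgeR FDR 0.00139). Its change in Pol I-AID, 0.4, did not pass (edgeR FDR 0.0585). lgg-2, a worm LC3 homologue, differed by -0.45 at 0 h, which did not pass (edgeR FDR 0.213), and was lower in Pol I-AID by -0.53 at 12 h and -0.44 at 24 h (edgeR FDR 0.0364). The change of its difference from 0 to 24 h was 0.02 (edgeR FDR 0.982). atg-3, which encodes an enzyme that attaches lipid to such proteins, was lower by -0.89 at 24 h (SE 0.27, edgeR FDR 0.0247), with 3.15 ± 0.423 CPM in TIR1 and 1.71 ± 0.299 in Pol I-AID. The change of the atg-3 difference from 0 to 24 h was -1.06 (edgeR FDR 0.0837).

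Of 9 tested DAF-16 targets, 2 were lower and 0 higher at an FDR under 0.05 at 24 h. Over all tested genes 6.45% were lower and 7.34% higher. The median of the 9 was 0.08, beside 0 for all tested genes. dod-3, named as a gene downstream of daf-16, held 17.3, 25.9, 95.3 and 79 CPM in TIR1 and 2.68, 4.66, 5.31 and 7.08 CPM in Pol I-AID. The log2 difference was -3.49 (SE 0.53, edgeR FDR 5.67e-05), and it passed in all 23 alternatives. The change of this difference from 0 to 24 h was -4.02 (edgeR FDR 0.000549). ctl-2, a peroxisomal catalase gene, averaged 104 ± 8.41 CPM in TIR1 and 77.1 ± 3.62 in Pol I-AID, a difference of -0.43 (SE 0.13, edgeR FDR 0.0294), which had changed by -0.68 from 0 h (edgeR FDR 0.0246). Of these FDR passes at 24 h, those of lgg-2, sqst-1, atg-3 and ctl-2 were kept in 11 of 23, 13 of 23, 14 of 22 and 14 of 23 alternatives, and those of akt-1 and flcn-1 in 22 of 23 and 19 of 22.

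As a description of pattern, the gene most like each member was sought among tested genes with a mean of at least 10 CPM, by Pearson's r of log2 CPM over the 24 libraries, which share depth and strain effects. The closest was C06B3.7 for rsks-1 (r 0.87), followed by F53F10.2 for aak-2 (r 0.8) and Y57G11C.22 for let-363 (r 0.79). For daf-2 it was hmg-1.2 (r 0.75), for daf-15 asb-2 (r 0.74), for raga-1 F54B3.1 (r 0.7), for rict-1 Y37E11AM.3 (r 0.69) and for ragc-1 dhc-1 (r 0.68). For rheb-1 it was aman-2 (r 0.65) and for age-1 lst-6 (r 0.55).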

How the data were processed

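The authors trimmed reads, aligned them to ce10 with spliced alignment and counted reads per WS220 gene over exons, and the deposited values are raw counts with no normalization. Both mates of a pair appear to be counted, since 70.1 to 82.4% of counts from 1 to 10 were even, so counts and molecules are not the same. Reads were counted in the orientation of the gene, while the SMART-Seq kit does not mark strand, so reads of overlapping antisense genes cannot be told apart.

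Counts were tested in R 4.3.3 with the quasi-likelihood F-test of edgeR 4.0.16, after TMM scaling and filterByExpr, in 1 model of 6 group means over 24 libraries. P-values were adjusted by Benjamini-Hochberg over 6903 genes. The SE was approximated from the log2 fold change and its F statistic, and intervals are 95%. DESeq2 1.42.0 and limma 3.58.1 (pseudocount 8) served as alternatives, and the scripts were tested on simulated data. Symbols were found for 94.1% of identifiers. The annotation at hand is WBcel235, another build than ce10, so no coordinates are given, and it served for exon overlaps only.

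The members and lists were chosen with earlier results of these data known. Of the wider lists, genes were named if called between strains at any time or under an FDR of 0.05 at 24 h. Others fall outside this rule and were named after their values were seen. These are aak-1, daf-16, ins-11, ins-13, mlst-8, sinh-1, sgk-1, fat-7, mtl-1 and mtl-2. The replicate number was not used as a block, because the study states none.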

Additional observations from a re-analysis of the deposited data

Results flagged for a closer look

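Within groups of 4 libraries, 5 of 60 combinations of gene and group held a library set apart from the other 3 by more than Dixon's 95% critical share of the group's range, where chance alone flags about 1 in 20. In TIR1 at 12 h the lowest aak-2 library was replicate 3 at 3.73 CPM, which is above every Pol I-AID library of that time. In TIR1 at 24 h the lowest aak-2 library was replicate 4 at 2.87 CPM. The highest rsks-1 library in TIR1 at 24 h was the shallow replicate 1 at 3.06 CPM, from 12 counts. The highest ragc-1 library of that group was replicate 4 at 3.14 CPM. The lowest daf-15 library in TIR1 at 0 h was the shallow replicate 3 at 7.72 CPM, from 32 counts.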

How the results depend on the processing

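Over 23 alternatives the aak-2 difference at 12 h lay between -1.21 and -0.91, passed the FDR in 22 and kept its call in 20, and rsks-1 kept its calls within Pol I-AID in all 22 alternatives that could be fitted. The cause of the changes below was not tested unless stated. The number of members called at 12 h fell from 1 to 0 with limma and a pseudocount of 8, and when libraries were left out in turn it ran from 0 to 1. The number called for the change from 0 to 12 h went from 0 to 1 with total count scaling. Within Pol I-AID it went from 1 to 3 from 0 to 12 h with the FDR alone, and to 0 from 0 to 12 h and from 0 to 24 h with at least 10 counts in every library, since rsks-1 is then not fitted, nor are ragc-1, rheb-1 and age-1. Leaving out libraries gave 1 to 2 from 0 to 12 h. Of the wider lists at 24 h, 2 genes were called, 9 with the FDR alone, 3 with at least 10 counts in every library or counts divided by 2 (akt-1, dod-3 and mop-25.1), 3 with limma (dod-3, ins-11 and mop-25.1), 4 with no filter (dod-3, ins-13, mop-25.1 and mtl-2), 4 with only the compared groups (dod-3, ins-11, ins-13 and mop-25.1), 4 with the exon length trend removed (dod-3, ins-11, mop-25.1 and mtl-1), and 1 to 5 when libraries were left out. Of these leave-out fits, dod-3 kept its call and mop-25.1 lost its call without replicate 2, replicate 3, Pol I-AID 24 h replicates 1 and 3, and TIR1 24 h replicate 3, while akt-1 gained a call in 8 and flcn-1 in 7.

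Signs turned only among values that were not called. With total count scaling the log2 values became -0.15 for daf-15 and -0.05 for daf-2 between strains at 0 h, -0.04 for rict-1 at 24 h, 0.15 for raga-1 in the change of that difference from 0 to 24 h, and -0.14, -0.13 and -0.12 for let-363, aak-2 and age-1 in TIR1 from 0 to 12 h. This scaling moved the median of all genes to -0.18 at 0 h, 0.16 and 0.11 in the changes to 12 and 24 h, -0.14 and -0.41 in TIR1, and -0.32 in Pol I-AID from 0 to 24 h. With limma the values became -0.13 for daf-15 at 0 h, 0.07 for rheb-1 at 24 h, 0.01 and 0.14 for daf-15 and raga-1 in the change from 0 to 24 h, and -0.15, -0.12 and -0.16 for let-363, aak-2 and age-1 in TIR1 from 0 to 12 h. With the exon length trend removed they became -0.01 for daf-15 at 0 h, -0.07 for let-363 at 12 h, -0.22 for rict-1 at 24 h, -0.12 for let-363 in the change from 0 to 24 h, -0.01 for aak-2 in TIR1 from 0 to 12 h, 0.04 and 0.06 for let-363 and age-1 in TIR1 from 0 to 24 h, and -0.02 for raga-1 in Pol I-AID from 0 to 12 h. The strict filter gave raga-1 0.01 at 12 h and 0.02 in the change from 0 to 24 h, leaving out vitellogenin gave let-363 -0.01 in that change, and DESeq2 gave let-363 -0.01 in TIR1 from 0 to 12 h.

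When libraries or replicates were left out, these ranges crossed 0. Between strains at 0 h they were -0.01 to 0.23 for daf-15, -0.3 to 0.01 for raga-1 and -0.25 to 0.08 for aak-2, at 12 h -0.17 to 0.1 for raga-1 and -0.49 to 0.2 for age-1, and at 24 h -0.27 to 0.01 for daf-15, -0.14 to 0.22 for rict-1, -0.35 to 0.05 for raga-1, -0.56 to 0.23 for rheb-1 and -0.05 to 0.48 for age-1. For the change from 0 to 12 h they were -0.08 to 0.2 for rict-1, -0.13 to 0.4 for raga-1 and -0.05 to 0.34 for daf-2, and from 0 to 24 h -0.13 to 0.13 for let-363, -0.36 to 0.24 for raga-1 and -0.57 to 0.18 for age-1. In TIR1 they were -0.06 to 0.13 for let-363, -0.19 to 0.07 for raga-1, -0.1 to 0.15 for aak-2 and -0.24 to 0.37 for age-1 from 0 to 12 h, and -0.32 to 0.06 for aak-2 and -0.53 to 0.23 for age-1 from 0 to 24 h. In Pol I-AID they were -0.11 to 0.1 for rict-1, -0.14 to 0.21 for raga-1 and -0.69 to 0.1 for rheb-1 from 0 to 12 h, and -0.22 to 0.02 for let-363, -0.26 to 0.06 for ragc-1, -0.55 to 0.12 for rheb-1 and -0.25 to 0.14 for daf-2 from 0 to 24 h.

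Libraries with the same replicate number correlated at -0.05 to 0.173 in their deviations from the group means, over 0.1 for 2 of 12 pairs, and 5 of 12 correlated best with their own number. With a replicate block the aak-2 difference at 12 h was -1.06 (edgeR FDR 0.00367), 2 genes of the wider lists were called at 24 h as without it, and the block changed no call of a member. Depth limits rheb-1 and rsks-1 most, at 0 to 23 and 4 to 69 counts per library.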
